A study of Mus musculus with 13 samples.

Results

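Genes that define the identity of brain endothelium were followed through RNA from microglia of newborn mouse brain. The set holds 47 genes, chosen by symbol for roles in junctions, adhesion, efflux, transcription and other traits of brain endothelium. They were chosen with earlier results of these data known. All 47 were found by Ensembl gene ID among the 55487 genes of the deposited table. The samples were whole brains of pups, titled as postnatal day 4 and described as days 3 to 5 in the series text, either from control dams (CON) or after maternal immune activation (MIA). The sources used here do not give the agent that the dams received, the strain, or the sex and litters of the pups. All groups shared 1 preparation: brains were not perfused, meninges were taken off, tissue was digested with papain at 37 °C, and cells carrying CD11b, a surface integrin of microglia and other myeloid cells, were held on a magnetic column. There were 5 retained CON and 5 retained MIA libraries. The titles of another 3 libraries, CON 6, MIA 6 and MIA 7, say that they were excluded, without a reason in the sources used here. Nothing in the labels says that replicates came from separate animals, so p-values measure the spread between these samples.

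Endothelial cells line every vessel of the brain. They seal the gaps between each other with tight junctions, pump foreign compounds back into the blood and keep vesicle transport low, and together these traits form the blood-brain barrier. Transcription factors of the ETS, SOX and forkhead families set and hold this identity. Endothelial cells do not carry CD11b at their surface as a rule, so a CD11b column is built to leave them behind.

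Between 25387055 and 35593541 counts were assigned per library, and totals were lower in MIA than in CON among the retained ones (2-sided exact permutation p = 0.0476). The labelled cell type was plain in every library: the 10 microglia markers examined, among them Csf1r, P2ry12 and Cx3cr1, summed to 23405 to 29949 CPM (counts per 1000000 after scaling between libraries) in CON and 15413 to 19772 CPM in MIA. The 47 endothelial genes summed to 3325 to 4442 CPM in CON and 6792 to 10652.6 CPM in MIA, at most 1.07% of any library. CON 6 carries a control label but had a member sum inside the MIA range, so results are given with and without the 3 libraries titled as excluded. CON 1 and CON 2 stood apart in the marker lists of red blood cells, of dissociation, and of pericytes and smooth muscle. Red blood cell transcripts summed to 61.3 and 80.1 CPM there against 1160.1 to 3049 CPM in the other 11 libraries, and transcripts induced by tissue dissociation to 2208 and 1991 CPM against 5618 to 9009 CPM. Pericyte and smooth muscle markers summed to 276 and 306 CPM there, against 415 to 1020.3 CPM in the other 11 libraries. A list of 7 venous genes summed to 263 and 317 CPM in CON 1 and CON 2, against 529 to 1046 CPM in the other 11 libraries. The astrocyte marker sum was highest of all 13 libraries in CON 1, at 774 CPM, and was 552 CPM in CON 2, within the range of the others. CON 1 and CON 2 also had the lowest endothelial sums, 3325 and 3449 CPM.

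Endothelial identity genes were higher in MIA almost as a block. Of the 47 genes, 43 rose and none fell at an edgeR adjusted p under 0.05, which is 91.5% of them against a background of 5.75% of the 15511 genes tested. Their median log2 fold change (MIA over CON) was 1.29, and the median of all tested genes was −0.0085. In 40 of the 47 every MIA library lay above every CON library, a pattern that 5.59% of all tested genes showed. At least a 2-fold rise was called in 33, against 2.84% of tested genes. The members were chosen with earlier results of these data known, so these shares are not independent support for a rise. Fli1, Tal1, Plvap and Tm4sf1 did not pass. All 47 fitted changes were above 0, and no member was lower at an unadjusted p under 0.05 with edgeR, DESeq2 or limma-voom (0 in each). DESeq2 and limma-voom also called the 43 higher, where they called 7.99% and 6.05% of the genes they tested. All 47 had at least 10 counts in every library, so none entered the test through its high group alone. Over all genes 892 were higher and 710 lower (4.58%). When libraries were scaled by their totals only, these became 1036 higher and 496 lower, with 43 members higher. In bulk RNA a larger share of endothelial cells and more of these transcripts per endothelial cell cannot be told apart.

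**Figure D1:**
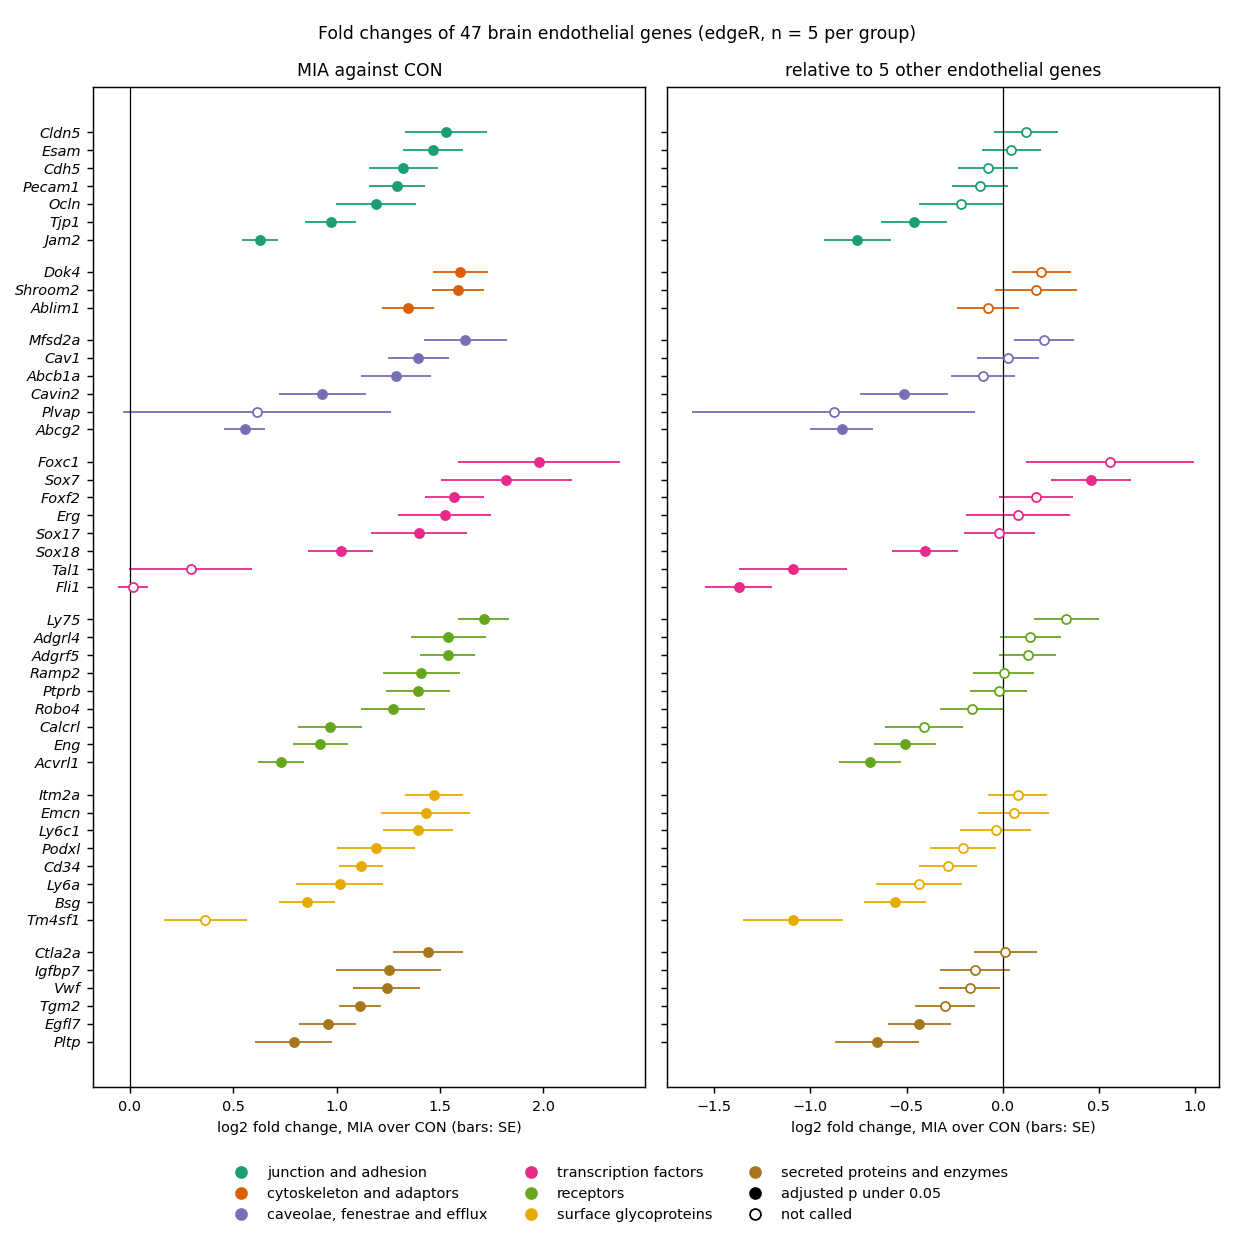
Log2 fold changes (MIA over CON, horizontal axes; bars are SE) of the 47 genes in 7 role groups, from the fit scaled across all genes on the left and from the fit scaled to 5 other endothelial genes on the right. Filled points passed an edgeR adjusted p under 0.05: 43 lie to the right on the left side, while on the right side 13 lie below 0 and 1, Sox7, above.

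The libraries titled as excluded lay partly between the groups. CON 6 had a member sum of 7347 CPM, above all 5 retained controls and inside the retained MIA range. MIA 6 and MIA 7 were at 6243 and 6589 CPM, below all 5 retained MIA libraries and above every retained control. Among the 43 genes that rose, CON 6 fell within the range of the retained MIA libraries and outside that of the controls for 30, between the groups for 12 and within the control range for 1, Calcrl. MIA 6 lay between the groups for 27 genes and in the retained MIA range only for 14. MIA 7 lay between the groups for 20 and in the retained MIA range only for 22. Fitted over all 13 libraries, 38 of the 43 genes still passed (2.71% of tested genes were higher). Those that no longer did were Cldn5, Sox18, Ly6a, Igfbp7 and Pltp. Adding CON 6 alone left 39 (background 3.61%), without Tjp1, Sox18, Igfbp7 and Pltp. With all 13 libraries except CON 1 and CON 2, 2 members were called, Shroom2 and Emcn, against 0.33% of tested genes. All 43 still had fold changes above 0 in that fit, at a median log2 value of 0.80. Leaving out CON 1 and CON 2 from the retained libraries gave 44 members (background 6.83%), with Tm4sf1 added.

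Other cell types moved beside the endothelial genes. Of all tested genes 5.75% were called higher and 4.58% lower. All 10 microglia markers fell, by a median of 0.55 on the log2 scale, and Itgam, which encodes the CD11b of the sort, was at 499.8 ± 34.9 CPM over the controls and 331 ± 30.6 over the MIA libraries (SD, n = 5 each). In the 3 libraries titled as excluded the microglia markers summed to 20619.6, 22537 and 23002 CPM (CON 6, MIA 6 and MIA 7), below every retained control and above every retained MIA library. None of 8 pericyte and smooth muscle markers passed (0 with edgeR, also unadjusted, and 0 with DESeq2 and limma-voom). They summed to 276 to 569.8 CPM in CON, 415 to 719 in MIA and 1020.3, 863 and 948 in CON 6, MIA 6 and MIA 7, which were the 3 highest of the 13. Of 5 fibroblast markers 4 rose, with sums of 177 to 207 CPM in CON and 238 to 345 in MIA. Their sums of 277, 322 and 315 CPM in CON 6, MIA 6 and MIA 7 were inside the MIA range and above every control. Of 7 neuron markers 4 rose, with sums of 52.9 to 71.9 CPM in CON and 100.2 to 150.0 in MIA, but 66.7, 71.7 and 60.97 CPM in CON 6, MIA 6 and MIA 7, inside the control range. With edgeR 0 of 6 border macrophage, 8 monocyte and neutrophil, 7 erythroid, 6 astrocyte and 10 dissociation markers passed. Their median log2 fold changes were −0.0079, −0.75, 1.11, 0.091 and 0.13 in this order. At an unadjusted p under 0.05 there were 3 of the monocyte and neutrophil list, which DESeq2 called and limma-voom did not, 1 astrocyte marker and 0 of the other lists. Erythroid markers summed to 61.3 to 2194 CPM in CON and 1741 to 3049 in MIA. Their log2 fold changes had SE of 0.87 to 1.05, so not passing does not show equal levels. Of 7 markers of the oligodendrocyte lineage 1 rose, Pdgfra, which fibroblasts share. In that list 4 had an unadjusted edgeR p under 0.05, DESeq2 called 2 and limma-voom 1. No marker of these lists was at 0 in all libraries. The part of these cell types and of dissociation in the endothelial difference was not tested.

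**Figure D2:**
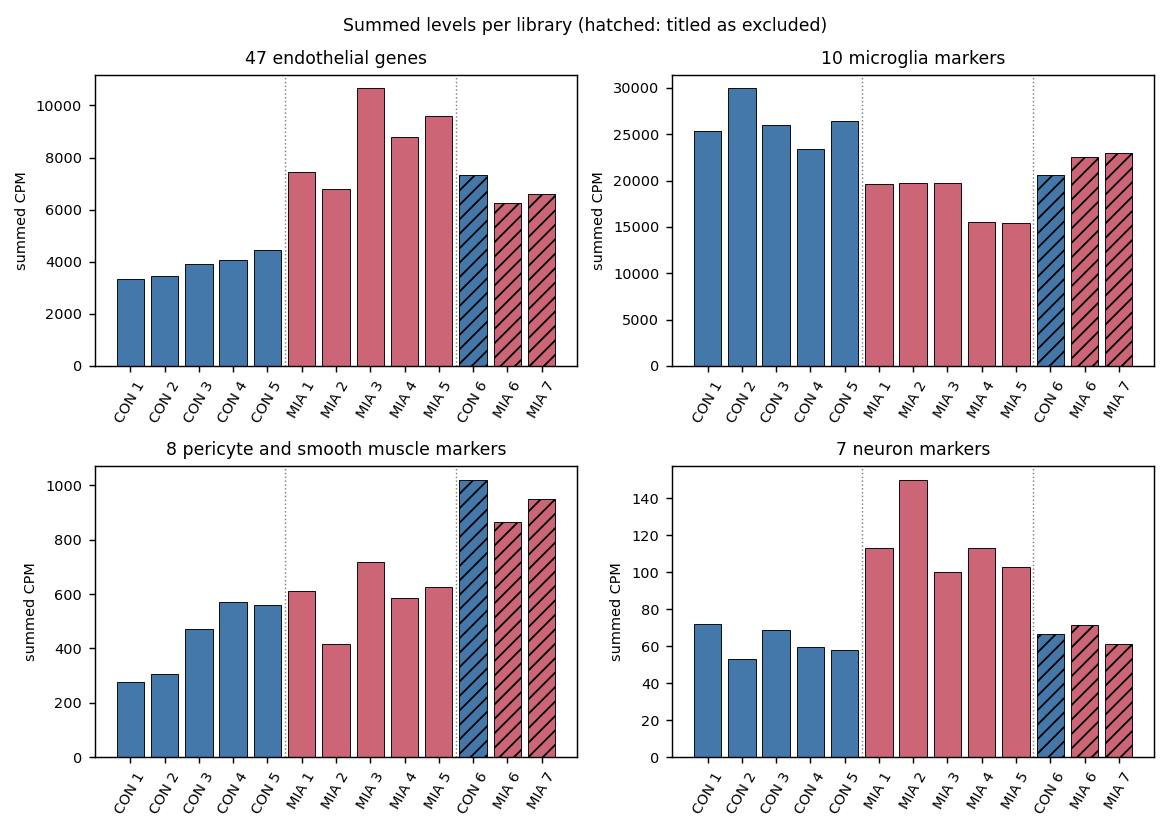
Summed CPM (vertical axes) per library of the 47 endothelial genes and of 3 marker lists; blue bars are CON, red bars MIA, and hatched bars are the 3 libraries titled as excluded. The endothelial sum of CON 6 (7347 CPM) stands among the MIA libraries, while its neuron marker sum (66.7 CPM) stands among the controls.

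Start-site sequences were matched for 29 of the 47 genes, in 48 windows of 250 bases upstream of a transcription start (RefSeq, GRCm38.p6; 1 gene can have several starts). ERG and FLI1, both members of the set, are ETS factors, whose binding sites hold a GGAA core. The letters AGGAAG, on either strand, stood in 21 of the 48 windows (43.8%), from 17 genes, and in 29.5% of all 32851 windows of this length. CGGAAG, the other ETS form searched, stood in 1 window (2.08%) and in 13.6% of all. AACAAT, as bound by SOX factors, stood in 14.6% of the member windows and 9.42% of all. AGATAA, as bound by GATA factors, stood in 10.4% and 9.99%, and the E-box CACGTG in 0 of 48 and 6.02%. The windows share genes and no test was made.

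The sequences below are shown because they contrast genes that rose with and without these letters, and 1 gene with them that did not pass. Each is the strand of the gene, 5′ to 3′, ending at the base before the start, with AGGAAG or its reverse complement CTTCCT in capitals. The windows lie at chr3:137340828-137341077 on the plus strand (Emcn), chr2:32646345-32646594 on the plus strand (Eng), chr9:37401722-37401971 on the plus strand (Robo4), chr16:18776597-18776846 on the plus strand (Cldn5) and chr3:57301989-57302238 on the minus strand (Tm4sf1). Their gene IDs in the table are ENSMUSG00000054690.17, ENSMUSG00000026814.16, ENSMUSG00000032125.21, ENSMUSG00000041378.2 and ENSMUSG00000027800.14 in the same order. Cldn5, which rose by 1.53 ± 0.20 on the log2 scale (SE), holds no match in its window, while Tm4sf1, which did not pass, holds 1. Tal1, which did not pass either, holds no match in its windows, which are not shown.
Emcn: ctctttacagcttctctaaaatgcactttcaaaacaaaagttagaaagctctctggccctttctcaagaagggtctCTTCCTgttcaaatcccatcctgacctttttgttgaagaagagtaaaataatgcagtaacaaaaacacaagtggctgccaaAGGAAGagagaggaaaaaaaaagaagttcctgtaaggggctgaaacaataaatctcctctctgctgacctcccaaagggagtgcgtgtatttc
Eng: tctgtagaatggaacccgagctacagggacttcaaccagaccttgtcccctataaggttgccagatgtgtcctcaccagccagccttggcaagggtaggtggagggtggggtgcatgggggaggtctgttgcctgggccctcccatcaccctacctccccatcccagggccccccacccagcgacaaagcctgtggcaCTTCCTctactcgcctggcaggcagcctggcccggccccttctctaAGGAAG
Robo4: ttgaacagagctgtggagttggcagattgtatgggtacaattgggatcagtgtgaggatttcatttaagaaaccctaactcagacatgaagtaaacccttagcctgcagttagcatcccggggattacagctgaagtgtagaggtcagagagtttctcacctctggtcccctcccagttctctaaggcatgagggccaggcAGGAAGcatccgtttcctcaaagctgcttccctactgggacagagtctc
Cldn5: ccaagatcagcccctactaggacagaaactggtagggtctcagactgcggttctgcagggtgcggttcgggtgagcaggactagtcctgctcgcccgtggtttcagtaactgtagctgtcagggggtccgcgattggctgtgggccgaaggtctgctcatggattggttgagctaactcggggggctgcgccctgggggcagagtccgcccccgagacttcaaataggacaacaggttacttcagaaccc
Tm4sf1: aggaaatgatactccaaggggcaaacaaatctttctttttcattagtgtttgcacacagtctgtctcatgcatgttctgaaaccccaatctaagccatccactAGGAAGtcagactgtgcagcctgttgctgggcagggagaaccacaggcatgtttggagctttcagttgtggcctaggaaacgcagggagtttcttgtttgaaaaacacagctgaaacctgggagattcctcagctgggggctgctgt

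All 7 junction and adhesion genes rose, by log2 values of 0.63 to 1.53. Cldn5 encodes claudin-5, the main sealing protein of brain endothelial tight junctions. Cldn5 was at 388, 515, 692, 593 and 735 CPM in CON 1 to CON 5 and at 1304, 1345, 2307, 1618 and 1865 CPM in MIA 1 to MIA 5, with 1439.9 CPM in CON 6, 1069 in MIA 6 and 1138 in MIA 7. The MIA libraries did not overlap with the retained controls, MIA 3 was the highest, and CON 6 was above MIA 1 and MIA 2. The fitted rise was 2.89-fold (edgeR adjusted p = 0.000617), with an adjusted p of 0.0525 over all 13 libraries. Esam encodes an adhesion molecule of endothelial contacts. Esam was at 78.1, 106, 109, 104 and 112 CPM in CON 1 to CON 5 and at 231, 213, 358, 300.0 and 305 CPM in MIA 1 to MIA 5, with 228 CPM in CON 6, 182 in MIA 6 and 198 in MIA 7. The groups did not overlap, and CON 1 was well below the other controls. Its log2 fold change was 1.46 ± 0.14 (SE; edgeR adjusted p = 0.000106). Jam2, a junctional adhesion molecule, had the smallest rise of the group. Jam2 was at 39, 41.7, 38.2, 47.7 and 42.7 CPM in CON 1 to CON 5 and at 57.6, 65.5, 66.1, 63.9 and 70.7 CPM in MIA 1 to MIA 5, with 64.95 CPM in CON 6, 66.3 in MIA 6 and 64.01 in MIA 7. The groups were apart and narrow, and all 3 libraries titled as excluded were among the retained MIA values. The log2 fold change was 0.63 ± 0.085 (SE; edgeR adjusted p = 0.000551).

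The remaining junction genes lay between these. Pecam1, the adhesion molecule CD31, was at 92.04 ± 13.97 CPM over the controls and 225 ± 42.3 over the MIA libraries (SD, n = 5 each). Cdh5 encodes VE-cadherin, the adherens junction protein of endothelium, and was at 38.5 ± 7.94 CPM over the controls and 96.3 ± 18.3 over the MIA libraries. Ocln, or occludin, a membrane protein of tight junctions, was at 44.5 ± 13.1 CPM over the controls and 102 ± 14.95 over the MIA libraries, and Tjp1, the scaffold ZO-1 beneath them, at 47.1 ± 6.08 CPM over the controls and 92.4 ± 16.1 over the MIA libraries. None of the 4 overlapped between the retained groups. In CON 6 they were at 187, 68.7, 69.1 and 94.1 CPM in this order. These values put Pecam1 and Tjp1 inside the retained MIA range and Cdh5 and Ocln between the groups.

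All 3 cytoskeleton and adaptor genes rose, with a median log2 fold change of 1.59. Ablim1 encodes an actin-binding LIM protein. Ablim1 was at 87.5, 82.1, 95.6, 84.2 and 107 CPM in CON 1 to CON 5 and at 181, 195, 287, 249 and 246 CPM in MIA 1 to MIA 5, with 217 CPM in CON 6, 178 in MIA 6 and 204 in MIA 7. Dok4 encodes a docking protein of receptor tyrosine kinases. Dok4 was at 30.4, 32.1, 36.7, 47.2 and 37.6 CPM in CON 1 to CON 5 and at 96.8, 91.5, 132, 119 and 118 CPM in MIA 1 to MIA 5, with 80.4 CPM in CON 6, 73.8 in MIA 6 and 79.9 in MIA 7. For both genes the retained groups were apart, and MIA 3 was the highest library. Their log2 fold changes were 1.35 ± 0.13 and 1.60 ± 0.13 (SE; edgeR adjusted p = 9.75e-05 and 7.04e-05). In the GENCODE M21 annotation 31.2% of the exon bases of Dok4 also lie in Polr2c on the opposite strand. The library kit does not mark strand, so reads of the pair cannot be told apart there. Polr2c itself was at 50.7 ± 5.62 CPM over the controls and 58.2 ± 1.51 over the MIA libraries, which did not pass. Shroom2, an actin regulator of cell contacts, varied little within the groups, at 6.59 ± 0.486 CPM over the controls and 19.8 ± 2.33 over the MIA libraries (SD, n = 5 each). It was at 13.1 CPM in CON 6, between the groups, and at 21.7 in MIA 7.

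**Figure D3:**
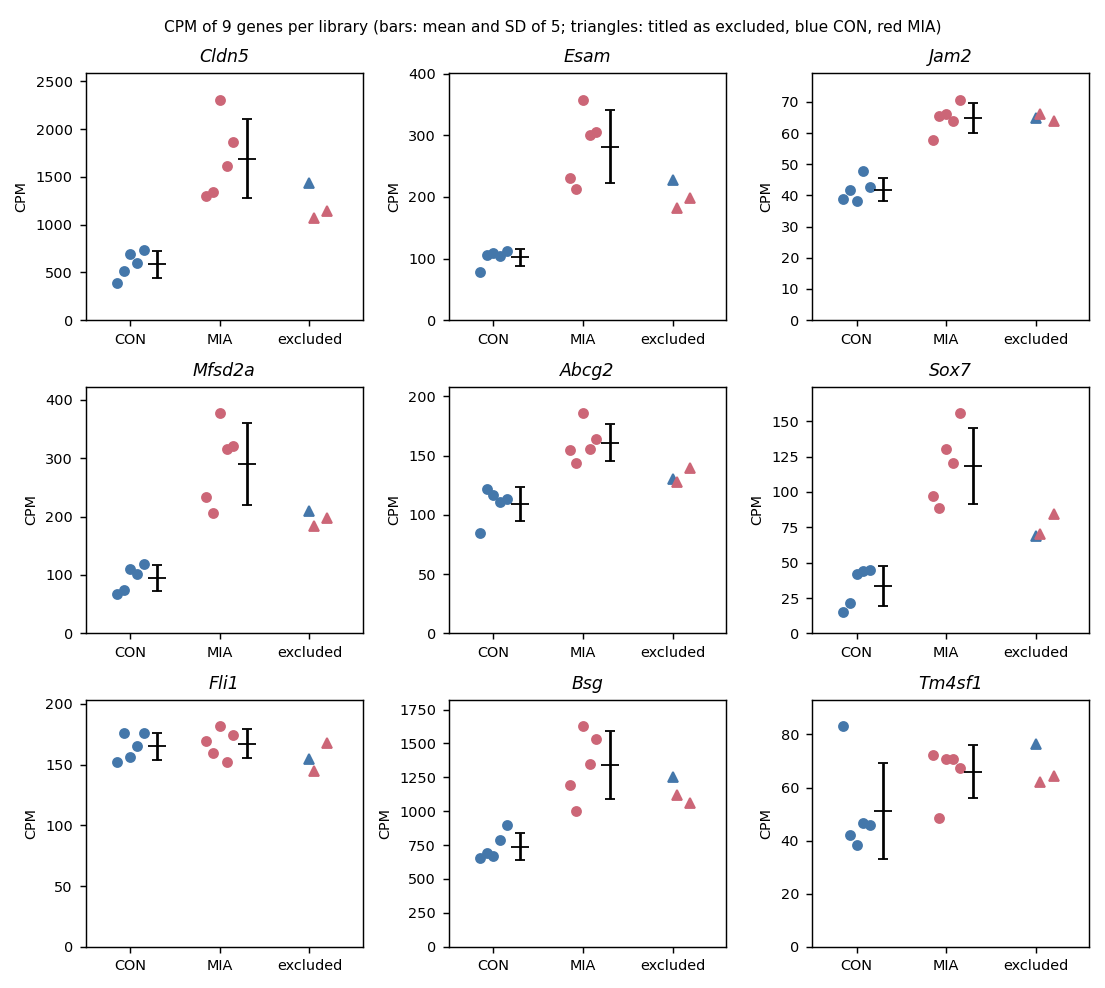
CPM (vertical axes, from 0) of 9 genes in every library; circles are the retained CON (blue) and MIA (red) libraries, bars their mean and SD (n = 5), and triangles the 3 libraries titled as excluded. Cldn5, Esam, Jam2, Mfsd2a, Abcg2, Sox7 and Bsg separate the retained groups, while Fli1 and Tm4sf1 overlap.

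Of 6 genes of caveolae, fenestrae and efflux, 5 rose. Mfsd2a encodes the lipid transporter that carries lysophosphatidylcholine across the barrier and restrains vesicle transport. Mfsd2a was at 67.2, 74.5, 109.9, 101.2 and 118 CPM in CON 1 to CON 5 and at 233, 205, 377, 315 and 320.5 CPM in MIA 1 to MIA 5, with 209 CPM in CON 6, 184 in MIA 6 and 198 in MIA 7. There was no overlap, MIA 3 was the highest, and all 3 libraries titled as excluded lay above the controls. It rose 3.08-fold (edgeR adjusted p = 0.000508). Abcg2 encodes the breast cancer resistance protein, an efflux pump. Abcg2 was at 84.9, 122, 117, 111 and 113 CPM in CON 1 to CON 5 and at 154, 144, 186, 156 and 164 CPM in MIA 1 to MIA 5, with 130.1 CPM in CON 6, 128 in MIA 6 and 139 in MIA 7. Every MIA value was above every control, CON 1 was the lowest library, and all 3 libraries titled as excluded lay between the groups. Its log2 fold change of 0.56 ± 0.10 was the smallest of those that passed among the 47 (SE; edgeR adjusted p = 0.00353). Abcb1a, P-glycoprotein, the other efflux pump of the set, was at 14.9 ± 3.25 CPM over the controls and 36.5 ± 6.47 over the MIA libraries (SD, n = 5 each), a log2 fold change of 1.29 ± 0.17; 10.1% of its exon bases lie in a gene on the opposite strand.

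Caveolae are small pits of the cell surface. Cav1, caveolin-1, the coat protein that forms them, was at 53.7 ± 12.2 CPM over the controls and 141 ± 14.5 over the MIA libraries (SD, n = 5 each) with no overlap. Cavin2, which shapes them, was at 19.1 ± 4.87 CPM over the controls and 36.3 ± 9.48 over the MIA libraries, and MIA 2, at 21.97 CPM, was below CON 1 at 25.7 and CON 4 at 22.5. Plvap encodes the diaphragm protein of fenestrae and caveolae, which the mature barrier lacks. Plvap was at 13.1, 2.87, 0.611, 6.86 and 3.03 CPM in CON 1 to CON 5 and at 10.3, 4.14, 4.65, 10.4 and 11.03 CPM in MIA 1 to MIA 5, with 2.75 CPM in CON 6, 4.16 in MIA 6 and 3.50 in MIA 7. The groups overlapped widely, CON 1 was the highest library and CON 3 the lowest. The log2 fold change was 0.61 ± 0.65 (SE; edgeR adjusted p = 0.652). It was 1.28 without CON 1, 0.32 without CON 3 and 1.17 with limma-voom, none of which passed.

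Among 8 transcription factors, 6 rose and Fli1 and Tal1 did not pass. Fli1, an ETS factor, is also expressed by blood and myeloid cells. Fli1 was at 152, 176, 157, 166 and 176 CPM in CON 1 to CON 5 and at 169, 159.6, 182, 152 and 174 CPM in MIA 1 to MIA 5, with 155 CPM in CON 6, 144 in MIA 6 and 168 in MIA 7. The groups lay over each other, and MIA 6 was the lowest library. The log2 fold change was 0.018 ± 0.072 (SE; edgeR adjusted p = 0.923). Erg, its close ETS relative, was at 2.69 ± 0.377 CPM over the controls and 7.74 ± 2.03 over the MIA libraries (SD, n = 5 each) and rose by 1.52 ± 0.23 on the log2 scale. Tal1, a helix-loop-helix factor of blood and endothelial precursors, did not pass either. Tal1 was at 6.24, 6, 14.8, 6.95 and 11.7 CPM in CON 1 to CON 5 and at 5.69, 11.95, 11.9, 11.8 and 14.7 CPM in MIA 1 to MIA 5, with 11.9 CPM in CON 6, 13.3 in MIA 6 and 6.65 in MIA 7. The groups overlapped throughout, with CON 3 and MIA 5 the highest and MIA 1 the lowest. Its log2 fold change was 0.29 ± 0.30 (SE; edgeR adjusted p = 0.630).

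The 3 SOX factors of the F subgroup, which act together in arterial and vessel growth, all rose. Sox7 was at 14.99, 21.3, 41.96, 44.2 and 44.9 CPM in CON 1 to CON 5 and at 97.3, 88.7, 130.1, 121 and 156 CPM in MIA 1 to MIA 5, with 68.7 CPM in CON 6, 70.6 in MIA 6 and 84.5 in MIA 7. The groups did not overlap, and CON 1 and CON 2 were below the other controls. Sox7 rose 3.53-fold (edgeR adjusted p = 0.00574), and its log2 fold change was 1.82 ± 0.32 (SE). Sox17 was at 15.5 ± 4.78 CPM over the controls and 40.98 ± 10.9 over the MIA libraries and Sox18 at 31.4 ± 5.08 CPM over the controls and 63.6 ± 14.4 over the MIA libraries (SD, n = 5 each). Sox17 shares 16.85% of its exon bases with Gm37587 on the opposite strand. Of the forkhead factors of vessel development, Foxf2 was at 7.17 ± 0.954 CPM over the controls and 21.3 ± 2.99 over the MIA libraries. Foxc1 had the largest log2 fold change of the 47, 1.98 ± 0.39 (SE; edgeR adjusted p = 0.00593). Foxc1 was at 0.655, 1.05, 0.553, 0.789 and 0.914 CPM in CON 1 to CON 5 and at 4.57, 1.35, 4.55, 2.96 and 2.22 CPM in MIA 1 to MIA 5, with 2.31 CPM in CON 6, 2.21 in MIA 6 and 2.61 in MIA 7. The groups were apart, MIA 1 and MIA 3 were the highest, and MIA 2 was close to the highest control, CON 2. Its counts ran from 19 to 138 per library.

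All 9 receptor genes rose, with a median log2 fold change of 1.39. Eng encodes endoglin, a co-receptor for ligands of the transforming growth factor family. Eng was at 201, 161, 210.1, 195 and 218 CPM in CON 1 to CON 5 and at 328, 289, 489, 359.6 and 399 CPM in MIA 1 to MIA 5, with 326 CPM in CON 6, 292 in MIA 6 and 300.3 in MIA 7. The groups did not overlap and MIA 3 was the highest. Its log2 fold change was 0.92 ± 0.13 (SE; edgeR adjusted p = 0.000800). Acvrl1 encodes ALK1, the receptor that endoglin assists. Acvrl1 was at 56.3, 57.04, 60.9, 53.2 and 67.5 CPM in CON 1 to CON 5 and at 89.3, 75.98, 115, 97.98 and 111 CPM in MIA 1 to MIA 5, with 86.9 CPM in CON 6, 78.9 in MIA 6 and 83.1 in MIA 7. No retained libraries overlapped between the groups. Among the receptors it had the smallest log2 fold change, 0.73 ± 0.11 (SE; edgeR adjusted p = 0.00126). Adgrf5 encodes an adhesion G-protein coupled receptor. Adgrf5 was at 63.4, 59.6, 74.6, 86.4 and 76.6 CPM in CON 1 to CON 5 and at 184, 163, 249.6, 209.7 and 241 CPM in MIA 1 to MIA 5, with 164 CPM in CON 6, 138 in MIA 6 and 135 in MIA 7. The groups were apart, and it rose 2.90-fold. Adgrl4, of the same receptor class, was at 70.2 ± 15.7 CPM over the controls and 204 ± 42.5 over the MIA libraries (SD, n = 5 each).

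Ly75 had the largest rise of the receptors. It encodes an endocytic receptor best known from dendritic cells. Ly75 was at 15.1, 20.4, 19.1, 22.3 and 23.1 CPM in CON 1 to CON 5 and at 65.5, 58.8, 77.8, 65.5 and 60.1 CPM in MIA 1 to MIA 5, with 54.2 CPM in CON 6, 51.3 in MIA 6 and 57.9 in MIA 7. The groups were far apart, and the 3 libraries titled as excluded all lay between them. The log2 fold change was 1.71 ± 0.12 (SE; edgeR adjusted p = 2.78e-05). Ramp2 and Calcrl encode the subunits of the adrenomedullin receptor. Ramp2 was at 48.4 ± 11.7 CPM over the controls and 129 ± 27.4 over the MIA libraries and Calcrl at 19.5 ± 4.06 CPM over the controls and 38.2 ± 6.75 over the MIA libraries (SD, n = 5 each), with log2 fold changes of 1.41 ± 0.19 and 0.97 ± 0.16 (SE). Ramp2 shares 33.4% of its exon bases with Vps25 on the same strand, and Vps25 was at 106 ± 6.97 CPM over the controls and 106 ± 3.66 over the MIA libraries. Ptprb, the phosphatase VE-PTP that acts on VE-cadherin and TIE2, was at 47.1 ± 7.67 CPM over the controls and 123 ± 26.9 over the MIA libraries. Robo4, a guidance receptor confined largely to endothelium, was at 34.8 ± 3.98 CPM over the controls and 84.02 ± 20.1 over the MIA libraries. No gene of this group overlapped between the retained groups.

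Of 8 surface glycoprotein genes, 7 rose. Bsg encodes basigin, the partner of lactate transporters at the barrier, also present on red blood cells and many other cells. Bsg was at 653, 692, 668, 789.6 and 897 CPM in CON 1 to CON 5 and at 1196, 998, 1627, 1347 and 1534 CPM in MIA 1 to MIA 5, with 1251 CPM in CON 6, 1119.6 in MIA 6 and 1064 in MIA 7. No values overlapped, with CON 5 the highest control and MIA 2 the lowest MIA library. The log2 fold change was 0.86 ± 0.13 (SE; edgeR adjusted p = 0.00144). Itm2a encodes a small membrane protein enriched in brain vessels. Itm2a was at 172, 203, 228, 269.6 and 267 CPM in CON 1 to CON 5 and at 581, 493, 712, 635 and 736 CPM in MIA 1 to MIA 5, with 505 CPM in CON 6, 421 in MIA 6 and 492 in MIA 7. It rose 2.77-fold, the largest rise of this group (edgeR adjusted p = 9.75e-05). Tm4sf1, a tetraspan membrane protein, did not pass. Tm4sf1 was at 83.1, 42.03, 38.3, 46.7 and 45.9 CPM in CON 1 to CON 5 and at 72.4, 48.4, 70.7, 70.7 and 67.5 CPM in MIA 1 to MIA 5, with 76.2 CPM in CON 6, 62.03 in MIA 6 and 64.5 in MIA 7. CON 1 was the highest of the 13 libraries, and MIA 2 lay near CON 4 and CON 5. The log2 fold change was 0.37 ± 0.20 (SE; edgeR adjusted p = 0.316), and 0.61 with an adjusted p of 0.00387 without CON 1.

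Ly6c1 and Ly6a encode lipid-anchored surface proteins of a family with near-identical copies, among which the authors' estimation can split reads. Ly6c1 was at 31.4 ± 3.62 CPM over the controls and 82.7 ± 21.9 over the MIA libraries and Ly6a at 16.8 ± 1.78 CPM over the controls and 33.9 ± 11.6 over the MIA libraries (SD, n = 5 each). In Ly6a, MIA 2 was at 18.6 CPM, below CON 1 at 19.4. Ly6c2, a close copy expressed by monocytes, was at 2.39 ± 1.35 CPM over the controls and 0.860 ± 0.223 over the MIA libraries and did not pass (edgeR adjusted p = 0.0600). Emcn and Podxl encode sialomucins of the luminal surface, and Cd34 another that blood progenitors share. Emcn was at 15.8 ± 5.52 CPM over the controls and 42.6 ± 7.64 over the MIA libraries, Podxl at 28.4 ± 7.52 CPM over the controls and 64.9 ± 12.1 over the MIA libraries and Cd34 at 149 ± 16.99 CPM over the controls and 323 ± 44.7 over the MIA libraries. None of these 3 overlapped.

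All 6 genes of secreted proteins and enzymes rose. Pltp encodes the phospholipid transfer protein of plasma. Pltp was at 278, 129.8, 165, 183 and 209 CPM in CON 1 to CON 5 and at 289, 261, 367, 368 and 385 CPM in MIA 1 to MIA 5, with 309.7 CPM in CON 6, 268 in MIA 6 and 239 in MIA 7. CON 1 stood above the other controls and above MIA 2, so the groups overlapped. Its log2 fold change was 0.79 ± 0.18 (SE; edgeR adjusted p = 0.0180), and the adjusted p was 0.0503 without MIA 4 and 0.118 over all 13 libraries. Pltp shares 19.3% of its exon bases with Ctsa on the opposite strand, a lysosomal gene that fell from 1495 ± 192 to 1030 ± 92.1 CPM. Igfbp7 encodes a growth factor binding protein of the vessel wall. Igfbp7 was at 28.9, 30.6, 56.3, 47.4 and 63.7 CPM in CON 1 to CON 5 and at 77.8, 79.9, 128, 120.2 and 135 CPM in MIA 1 to MIA 5, with 99.3 CPM in CON 6, 83.3 in MIA 6 and 76.2 in MIA 7. The groups were apart, with CON 1 and CON 2 the lowest, and it rose 2.38-fold (edgeR adjusted p = 0.0108), with an adjusted p of 0.0932 over all 13 libraries. Ctla2a encodes an inhibitor of cysteine proteases and shares 16.3% of its exon bases with Gm49391 on the same strand. Ctla2a was at 21.5, 23.2, 30.5, 25.7 and 27.01 CPM in CON 1 to CON 5 and at 58.6, 44.4, 85.7, 79.2 and 80.1 CPM in MIA 1 to MIA 5, with 49.2 CPM in CON 6, 49.05 in MIA 6 and 45.5 in MIA 7. The groups did not overlap, and its log2 fold change was 1.44 ± 0.17 (SE; edgeR adjusted p = 0.000291).

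Tgm2, a transglutaminase that cross-links matrix proteins, was at 41.6 ± 2.44 CPM over the controls and 90.1 ± 13.5 over the MIA libraries (SD, n = 5 each). On the opposite strand it shares 13.7% of its exon bases with Gm20412 and 8.03% with Rprd1b. Vwf, the clotting factor stored in endothelial cells, was at 28.2 ± 5.24 CPM over the controls and 66.8 ± 14.5 over the MIA libraries. Egfl7, a secreted endothelial protein whose gene also hosts a microRNA, was at 30.1 ± 4.99 CPM over the controls and 58.5 ± 8.86 over the MIA libraries. For each of the 3 the retained groups were apart.

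**Figure D4:**
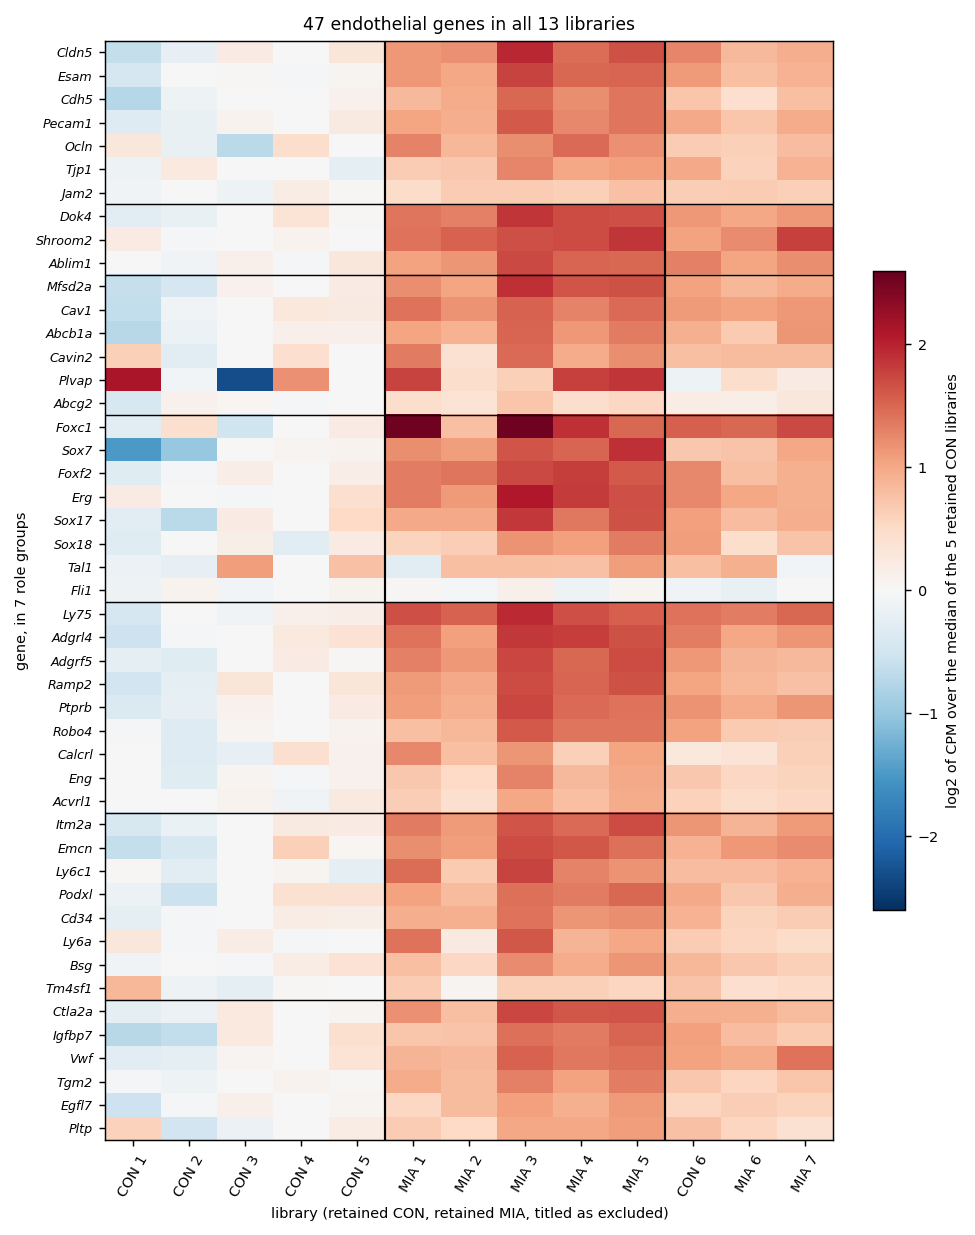
Log2 ratio of CPM to the median of the 5 retained CON libraries (colour) for the 47 genes (rows, in 7 role groups) in all 13 libraries (columns; lines separate retained CON, retained MIA and those titled as excluded). MIA 3 is the highest library for 30 of the 47 genes, CON 1 the lowest for 24, and the row of Fli1 is nearly white throughout.

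The rises were not of 1 size. To compare them, the libraries were rescaled to the geometric mean count of 5 endothelial genes outside the set, the receptors Flt1, Kdr, Tek and Tie1 and the surface lectin Clec14a, and all 15511 genes were tested again. All 5 were called higher in the first fit, at log2 values of 1.21 to 1.54. They come from a list of 16 general endothelial genes, of which 13 rose. That list was chosen with earlier results of these data known. On this scale a value shows only whether a gene changed by another amount than the 5. Relative to them 13 members were lower, where 80.5% of all tested genes were lower, and 33 did not pass, with log2 values of −0.88 to 0.56. Those that did not pass may still differ, since the lowest SE of any member was 0.15. Sox7 alone was higher, with a relative log2 value of 0.46 ± 0.21 (SE; edgeR adjusted p = 0.0495; 0.0129% of tested genes were higher), and it was not called in 11 of the 18 alternative fits of this kind.

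The 13 members below the 5 reference genes came from 6 of the 7 role groups. Fli1 was furthest below, at −1.37 ± 0.17 on the log2 scale relative to the reference (SE), followed by Tm4sf1 at −1.09 ± 0.26 and Tal1 at −1.09 ± 0.28. The median of all tested genes on this scale was −1.40. Fli1, Tm4sf1 and Tal1 had not passed in the first fit, so their values here show no fall of their own. Among genes that rose, Abcg2 was at −0.84 ± 0.16, Jam2 at −0.76 ± 0.17, Acvrl1 at −0.69 ± 0.16 and Pltp at −0.65 ± 0.22 (SE; edgeR adjusted p = 0.000106, 0.000577, 0.000592 and 0.0102). Bsg, Cavin2, Eng, Tjp1, Egfl7 and Sox18 made up the rest, at log2 values of −0.56 to −0.40. Fli1, Tal1 and Abcg2 were lower in all 18 alternative fits of this kind, and Jam2, Acvrl1 and Tm4sf1 in 17. With all 13 libraries 7 members were lower, where 77.7% of tested genes were, and 7 without CON 1 and CON 2, where 70% were. Claudin-5, VE-cadherin, CD31, caveolin-1 and P-glycoprotein had relative log2 values of 0.12 ± 0.17, −0.075 ± 0.16, −0.12 ± 0.15, 0.028 ± 0.16 and −0.10 ± 0.17 (SE), none of which passed.

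Levels of different genes were set side by side only per kilobase of exon (GENCODE M21). In CON, Cldn5 at 413 ± 98.5 and Bsg at 408 ± 56.8 CPM per kilobase were the highest of the 47 genes (SD, n = 5) and lay within each other's spread. Itm2a followed at 131 ± 24.04 and Pltp at 75.2 ± 21.7. Eng at 48.6 ± 5.45, Fli1 at 47.4 ± 3.18 and Mfsd2a at 41.9 ± 9.88 came next and lay within each other's spread. In MIA the order at the top was Cldn5 at 1192 ± 292, Bsg at 739 ± 139.8, Itm2a at 362 ± 56.7, Pltp at 130.3 ± 21.4 and Mfsd2a at 129 ± 31.1 CPM per kilobase, of which the last pair did not differ beyond their spread. Foxc1, Erg and Shroom2 were the lowest in both groups, at 0.136, 0.776 and 0.787 CPM per kilobase in CON.

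Endothelial genes outside the set moved in the same direction in most lists, beside the same background of 5.75% higher genes. These lists too were chosen with earlier results of these data known. Of 16 general endothelial genes 13 rose, with Slc2a1, the glucose transporter of the barrier, at 322 ± 14.6 CPM over the controls and 704 ± 147 over the MIA libraries (SD, n = 5 each) and Slco1c1, a thyroid hormone transporter, at 138 ± 20.6 CPM over the controls and 313 ± 64.7 over the MIA libraries. Kdr, the main receptor for vascular endothelial growth factor, was at 138 ± 24.6 CPM over the controls and 367 ± 84.6 over the MIA libraries. Of 10 other junction genes 5 rose, among them Cgnl1, Lsr, Afdn and Ctnna1. Ctnnb1 and F11r, which many cell types express, were at log2 fold changes of 0.35 ± 0.17 and −0.17 ± 0.091 (SE) and did not pass. Ctnna1, the catenin that ties cadherins to actin, was at 166 ± 16.6 CPM over the controls and 215 ± 28.4 over the MIA libraries.

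Lists for vessel segments held both called and uncalled genes. Of 11 arterial genes 5 rose, Gja4, Hey1, Dll4, Notch4 and Unc5b. The Notch ligand Dll4 was at 25 ± 6.67 CPM over the controls and 72.2 ± 19.9 over the MIA libraries (SD, n = 5 each), the gap junction gene Gja4 at 27.4 ± 5.83 CPM over the controls and 50.4 ± 10.1 over the MIA libraries, and Hey1, a target of Notch, at 11.6 ± 2 CPM over the controls and 24.8 ± 3.23 over the MIA libraries. Of 7 venous genes 6 could be tested and 3 rose, Ephb4, Slc38a5 and Ackr1; Slc38a5, an amino acid transporter, was at 144 ± 36 CPM over the controls and 432 ± 104 over the MIA libraries. Icam1 and Vcam1, adhesion molecules that inflammation induces, were at 244 ± 130.4 CPM over the controls and 341 ± 33.2 over the MIA libraries for Icam1 and at 29.6 ± 14.98 CPM over the controls and 46.9 ± 11.8 over the MIA libraries for Vcam1, and neither passed. Of 7 genes of tip cells and growing vessels, 3 rose, Apln, Angpt2 and Aplnr, and Cd276 fell (63.04 ± 7.54 CPM over the controls and 47.1 ± 5.60 over the MIA libraries). Aplnr, the apelin receptor, was at 150.4 ± 46.9 CPM over the controls and 434 ± 94.4 over the MIA libraries and its ligand Apln at 42.2 ± 9.38 CPM over the controls and 119 ± 19.2 over the MIA libraries. The lists were not tested against each other.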

How the data were processed

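RNA of CD11b-selected cells was sequenced with a modified Smart-Seq2 protocol and a tagmentation kit that does not mark strand, per the labels' protocols. The authors deposited expected counts per gene, estimates that need not be whole (20.6% of nonzero values were not), without normalization. RSEM, STAR and DESeq2 are named without versions in the submitters' processing notes; genome build and annotation: not given in the sources used here. Counts were rounded. Genes passing filterByExpr (15511) were tested between 5 CON and 5 MIA libraries with edgeR 4.0.16 (quasi-likelihood, TMM scaling, Benjamini-Hochberg 0.05, R 4.3.3), and the SE is the log2 fold change over the root of F. CPM use the same scaling, extended to the 3 libraries titled as excluded. Symbols came from a table of Ensembl IDs (55141 of 55487 matched with or without version). A second edgeR fit used the log geometric mean of Flt1, Kdr, Tek, Tie1 and Clec14a as offset. On simulated counts with 15511 genes the first fit recovered 23.5% of 1.5-fold, 48.0% of 2-fold and 76.0% of 4-fold changes. Of its 89 calls 4.49% were false. The alternatives, among them DESeq2 1.42.0 and limma 3.58.1 (voom), are in the closing section. A count of 3 was 0.0873 to 0.117 CPM; totals limit precision for counting error only, since PCR copies are not independent molecules. In each role group all values are given for the 2 genes with the highest mean CPM, those with the largest and smallest fold change and those not called; of other lists up to 3 of the most abundant genes, and the called genes where there were 5 or fewer, the latter named after their values were seen; single values of 2 list genes are not reported here. The members and lists were chosen with earlier results of these data known.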

Additional observations from a re-analysis of the deposited data

Results flagged for a closer look

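In the 3 libraries titled as excluded, which enter no comparison between the retained groups, the summed level of the 47 genes was above every retained CON library: 7347 CPM in CON 6, 6243 CPM in MIA 6 and 6589 CPM in MIA 7. CON 6 carries a control label. In groups of 5 libraries, 1 library lay far from the others in 4 of the 94 sets of values examined, where chance marks about 1 in 20. Esam was at 78.1 CPM in CON 1, the lowest control, and Abcg2 at 84.9 CPM in the same library, again the lowest. Tm4sf1 was at 83.1 CPM in CON 1, the highest control, and at 48.4 CPM in MIA 2, the lowest retained MIA library. CON 1 is also 1 of the 2 libraries with few red blood cell, dissociation, pericyte and smooth muscle transcripts. The part of any of these in the values above was not tested.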

How the results depend on the processing

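Of the 47 genes, 42 to 44 were called higher when single libraries, CON 1 and CON 2, scaling or test were changed within the retained libraries, and 41 with a strict low-count filter, which left Erg and Foxc1 untested; 42 of the 43 kept their call in every such fit that tested them. Pltp lost it without a filter and without MIA 4. In the fits within the retained libraries 3 to 8.95% of tested genes were called higher, the smallest share without a filter and the largest with the strict one. Over all genes the number higher fell from 892 to 424 with all 13 libraries, 567 with CON 6 added and 53 with all 13 except CON 1 and CON 2, where 2 members were called; the last pair of alternatives was chosen after seeing the data. The number lower went from 710 to 235 with all 13 libraries and 37 without CON 1 and CON 2 among them, and to 365 to 1025 when 1 library was left out (464 without CON 2, 382 without MIA 4 and 365 without MIA 5). Relative to the 5 reference genes, 13 members were lower in the retained libraries (80.5% of tested genes), 7 with all 13 (77.7%), 7 without CON 1 and CON 2 (70%), 7 with CON 6 added (75.5%) and 3 with all 13 except CON 1 and CON 2 (63.8%). Sox7, the 1 member higher, was lost in all 4 of these and with the reference without Flt1 and Kdr (0 each), and 0 to 1 members were higher when 1 library was left out, which was Ly75 and not Sox7 without MIA 5. Fli1 changed sign to −0.0024 without CON 1 and CON 2 and ran from −0.014 to 0.049 with 1 library left out. Tal1 was at −0.0024 without CON 1 and CON 2 and −0.066 when all 13 libraries except these were used. The cause was not tested. With the replicate number as a block 43 members were higher (5.8% of tested genes). Relative to the reference 17 members were then lower (79.1% of tested genes) and 2 higher, Sox7 and Ly75. Same-numbered libraries had correlated deviations over 0.1 in 1 of 5 pairs, and 2 of 5 libraries correlated best with their own number. The labels give same-numbered libraries only a number in common, and this check cannot tell whether they share more. Plvap and Foxc1, with counts down to 21 and 19 in a library, had the largest SE of the log2 fold change among the 47 (0.65 and 0.39).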

Other observations

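Lymphatic endothelium, absent from brain tissue proper but present in the meninges, was followed with 4 genes. Flt4, the receptor of lymphatic growth that blood endothelium also expresses while vessels grow, rose from 16.9 ± 2.82 to 55.2 ± 10.6 CPM (SD, n = 5 each; log2 fold change 1.71, edgeR adjusted p = 8.16e-05). Prox1, the factor that sets lymphatic identity, had 13.9 ± 3.44 CPM over the controls and 14.3 ± 1.31 over the MIA libraries. Lyve1, which border macrophages share, was at 268 ± 55.3 and 294 ± 103 CPM, and Pdpn at 19.4 ± 16.8 and 22.7 ± 10.4 CPM. None of these last 3 passed.

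S1pr1, a sphingolipid receptor of endothelium that microglia and other brain cells also express, had 105 ± 11.95 CPM over the controls and 107 ± 11.3 over the MIA libraries, a log2 fold change of 0.021, while 13 of the 16 general endothelial genes rose. Of 3 platelet genes that could be tested, 0 passed with edgeR, DESeq2 or limma-voom and 1 had an unadjusted edgeR p under 0.05, with Gp9 at 5.84 ± 1.16 CPM over the controls and 3.88 ± 1.01 over the MIA libraries.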
